A study of Mus musculus with 16 samples.

Results

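Transcripts of 10 scavenger receptor genes, Marco, Msr1, Colec12, Cd36, Scarb1, Olr1, Scarf1, Stab1, Cd163 and Cd5l, were compared between the Tim-4+ and Tim-4- subsets of tumor-associated macrophages (TAMs). The genes were taken by name, out of 55604 genes listed, and all 10 passed the filter on low counts that left 16861 genes for testing. Both subsets came from the peritoneal fluid of female C57BL/6 mice, 6 to 8 weeks old when used, 6 to 7 weeks after they had received ID8 cells, an ovarian surface epithelial tumor line of mouse that spreads over the peritoneum. Tim-4+ TAMs were pulled out with beads against Tim-4, and Tim-4- TAMs were then taken from the remaining cells with beads against the macrophage antigen F4/80, so that no mouse without a tumor and no untreated comparison is included. There were 4 libraries per subset, numbered 793, 784, 783 and 779 in both, and the labels do not say whether a number stands for 1 mouse or for a pool. Values are given in that order of pairs.

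Scavenger receptors are surface or secreted proteins of unrelated structure that share a broad binding range for modified lipoproteins, polyanions, microbial surfaces and remnants of dead cells. Tissue macrophages use them to clear debris without necessarily mounting an inflammatory response, and the set that a macrophage displays differs between tissues. In the peritoneal cavity, Marco takes up particles and bacteria, and Cd5l is a secreted scavenger protein typical of large resident macrophages. Each class has its own fold: class A receptors carry a collagen-like stalk, class B receptors form a lipid channel, and the cysteine-rich class includes Cd163 and Cd5l.

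Of the 10 genes, 6 were higher in Tim-4+ TAMs (Marco, Colec12, Cd5l, Cd163, Cd36 and Msr1), 1 was lower (Stab1) and 3 did not pass the test (Scarb1, Scarf1 and Olr1). A call means an adjusted p under 0.05 in edgeR's quasi-likelihood test, blocked on the pair number and corrected by the Benjamini-Hochberg method over all 16861 genes. In that comparison 8.97% of all tested genes were called higher and 8.43% were called lower. Their median log2 fold change was 0.77, beside -0.00 over all tested genes. The sizes ranged from a 16.4-fold higher level of Marco to a 2.12-fold lower level of Stab1. Without the pair block, 3 of the 10 were called higher (Marco, Colec12 and Cd5l) and 0 lower, beside 0.872% and 0.504% of all genes. At an unadjusted p under 0.05 edgeR without the block gave 4 higher and 0 lower. No share over all genes is given here for that threshold. DESeq2 with the block called 7 higher and 1 lower after adjustment, beside 13.0% and 13.8% of all genes in that test. For 4 of the 10 (Marco, Colec12, Cd5l and Cd163), every Tim-4+ library lay above every Tim-4- library, which held for 6.84% of the tested genes. In bulk RNA, fewer cells of a type and less RNA per cell cannot be told apart.

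**Figure D1:**
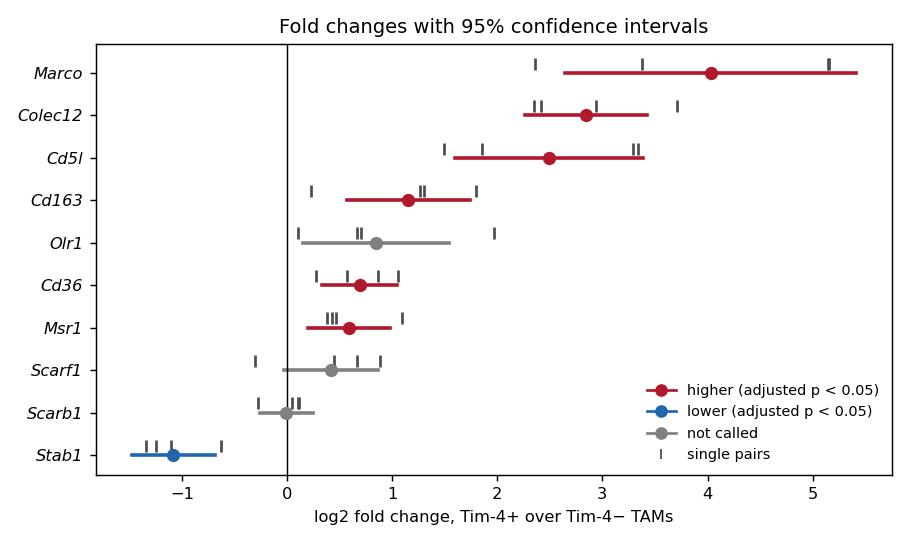
Fitted log2 fold change of each scavenger receptor gene (Tim-4+ over Tim-4- TAMs, point) with its 95% confidence interval (line) and the log2 ratio of each of the 4 pairs (ticks). Marco, Colec12 and Cd5l stood at 4.03, 2.85 and 2.49, and Stab1 at -1.08 was the only gene called lower.

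The sequences just ahead of Marco, Cd5l and Stab1 are shown because these genes had the largest shifts in each direction among those whose promoter was in the RefSeq table used here. It held 6 of the 10 genes (not Msr1, Scarb1, Scarf1 and Colec12), as the 250 bases before each gene's start on GRCm38.p6, printed 5′ to 3′ on the gene's own strand. Capitals mark matches, on either strand, to 5 short motifs. These were AGATAA as a form of the GATA motif, GAGGAA as the core of a PU.1 site and TGCTGA as a half-site of MAF factors. The others were TGANTCA as the AP-1 motif and AGGTCA as a nuclear receptor half-site. Other forms of the GATA motif, such as TGATAA, were not searched for and are not marked. The Marco sequence is from chr1:120505025-120505274 (minus strand), the Cd5l sequence from chr3:87357631-87357880 (plus strand) and the Stab1 sequence from chr14:31168642-31168891 (minus strand).
Marco: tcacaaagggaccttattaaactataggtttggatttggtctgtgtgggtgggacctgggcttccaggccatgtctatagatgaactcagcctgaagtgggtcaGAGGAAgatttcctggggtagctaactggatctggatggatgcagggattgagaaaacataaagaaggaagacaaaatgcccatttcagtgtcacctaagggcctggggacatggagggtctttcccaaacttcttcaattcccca
Cd5l: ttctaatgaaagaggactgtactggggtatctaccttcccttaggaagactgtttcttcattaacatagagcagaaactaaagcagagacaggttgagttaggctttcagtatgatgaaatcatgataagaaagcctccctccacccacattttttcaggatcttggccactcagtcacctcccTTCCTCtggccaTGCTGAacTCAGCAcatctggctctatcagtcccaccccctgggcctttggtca
Stab1: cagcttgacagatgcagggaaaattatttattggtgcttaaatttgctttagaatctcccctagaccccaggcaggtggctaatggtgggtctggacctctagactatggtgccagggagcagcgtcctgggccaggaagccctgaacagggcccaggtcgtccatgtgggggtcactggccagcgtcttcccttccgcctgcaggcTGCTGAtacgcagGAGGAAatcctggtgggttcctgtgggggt
All 3 held the PU.1 core, which starts 146 bases before the start of Marco, 66 bases before Cd5l (there on the reverse strand) and 30 bases before Stab1. The MAF half-site stood in Stab1 (43 bases before the start) and in Cd5l at 54 bases and, on the reverse strand, at 46 bases, and not in the Marco window. Of the other promoters, that of Olr1 held the GATA, PU.1, AP-1 and nuclear receptor motifs, that of Cd36 held the MAF and nuclear receptor half-sites, and that of Cd163 held none of the 5. Over 32851 promoters of the same length, the PU.1 core was found in 23.3%, the MAF half-site in 16.1%, the nuclear receptor half-site in 14.0%, GATA in 9.99% and AP-1 in 6.75%. A match is a run of letters and not a mapped site.

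Marco, the collagenous class A receptor for bacteria and unopsonized particles, showed the widest gap of the 10 genes. Its level, in sequencing counts scaled to library size by TMM (CPM), was 4021, 9891, 3579 and 5384 in Tim-4+ TAMs, against 785, 276, 343 and 151 in Tim-4- TAMs. The lowest Tim-4+ library was therefore above the highest Tim-4- library, and the Tim-4+ library of pair 784 was the highest of all. The gene (ENSMUSG00000026390.7, GRCm38 chromosome 1, 120474538 to 120505024, minus strand) had means of 5719 ± 2885 and 389 ± 276 CPM (SD, n = 4 each), and it differed by 4.03 on the log2 scale with an SE of 0.58 and an adjusted p of 0.0104 (edgeR's quasi-likelihood test, Benjamini-Hochberg). The ratio was not even between pairs, at 5.12-fold in 793, 35.9-fold in 784, 10.4-fold in 783 and 35.6-fold in 779. Raw counts were large in every library, from 9843 in the Tim-4- library of pair 779 to 494329 in the Tim-4+ library of pair 784, so counting error was small beside the spread between pairs. Without pair 784 the log2 difference was 3.61 (adjusted p 0.0625), and with no filter on counts it was 4.02 (adjusted p 0.0841).

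Cd5l, the secreted cysteine-rich protein also known as apoptosis inhibitor of macrophages, was the other abundant member with a wide gap. Tim-4+ TAMs held 2136, 3790, 788 and 2848 CPM, and Tim-4- TAMs held 593, 374, 280 and 291 CPM. The groups did not overlap, though the Tim-4+ library of pair 783 lay well under the other Tim-4+ libraries. The fitted difference for Cd5l (ENSMUSG00000015854.7, chromosome 3, 87357881 to 87371073) was 5.63-fold, a log2 fold change of 2.49 with an SE of 0.37 and an adjusted p of 0.0110 in edgeR's quasi-likelihood test. Pair by pair the ratio was 3.6-fold, 10.1-fold, 2.81-fold and 9.77-fold, so pairs 784 and 779 again had the widest gaps, as for Marco. Without pair 784 the adjusted p of Cd5l was 0.0651, and with no count filter it was 0.0519 at a log2 fold change of 2.48.

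Colec12, a class A receptor with a collectin-like lectin domain also called collectin placenta 1, had a low level and a wide difference. It measured 86.0, 58.9, 78.5 and 68.7 CPM in Tim-4+ TAMs and 16.1, 7.66, 15.4 and 5.235 CPM in Tim-4- TAMs. No library of one subset reached the range of the other. The gene (ENSMUSG00000036103.9, chromosome 18, 9707595 to 9882644) was 7.19-fold higher, with a log2 fold change of 2.85, an SE of 0.24 and an adjusted p of 0.00394 in edgeR's quasi-likelihood test. Its log2 ratio ranged from 2.35 in pair 783 to 3.71 in pair 779. It was the only member that stayed called under every one of the 13 alternatives, with a highest adjusted p of 0.0463.

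**Figure D2:**
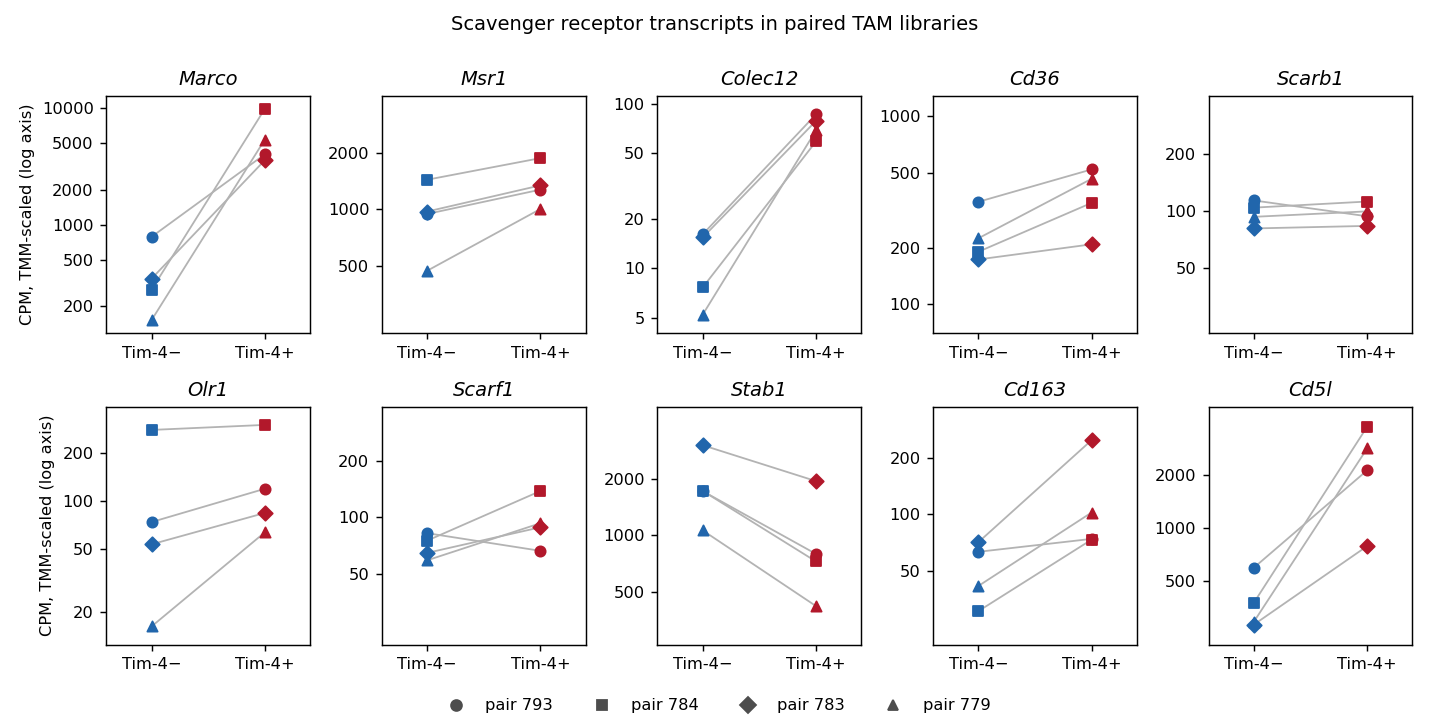
TMM-scaled CPM (log axis, with a range of its own in each panel) of the 10 genes in Tim-4- (blue) and Tim-4+ (red) TAMs, with a grey line joining the libraries of a pair and 1 marker shape per pair. Lines rise in all 4 pairs for Marco, Colec12, Cd5l, Cd163, Cd36, Msr1 and Olr1, and fall in all 4 for Stab1.

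The remaining class A gene, Msr1, encodes the macrophage receptor for acetylated and oxidized LDL. It was expressed strongly by both subsets, at 1269, 1867, 1337 and 1001 CPM in Tim-4+ TAMs and 942, 1433, 970 and 470 CPM in Tim-4- TAMs. The ranges overlapped, and the difference lay within pairs, each Tim-4+ library being above its partner. Msr1 (ENSMUSG00000025044.16, chromosome 8, 39581685 to 39642673) differed by a log2 fold change of 0.59 with an SE of 0.17, or 1.51-fold, and its adjusted p of 0.0494 in edgeR's quasi-likelihood test was just inside the threshold. The call was lost in 9 of the 13 alternatives, among them without the pair block (adjusted p 0.415) and without pair 793 (0.101), 784 (0.126), 783 (0.0690) or 779 (0.172), with log2 fold changes from 0.23 to 0.66. Msr1 and Marco, both class A, thus differed between the subsets by very unequal amounts, the interval of Msr1 being 0.20 to 0.98 and that of Marco 2.65 to 5.42 on the log2 scale.

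Of the class B receptors, Cd36 was higher and Scarb1 was level. Cd36, which binds oxidized LDL, long-chain fatty acids and thrombospondin-1, measured 521, 346, 208 and 465 CPM in Tim-4+ TAMs and 351, 190, 173 and 224 CPM in Tim-4- TAMs. Every Tim-4+ library was above its partner although the ranges overlapped, the smallest step being in pair 783. The log2 fold change of Cd36 (ENSMUSG00000002944.15, chromosome 5, 17781690 to 17888801) was 0.69 with an SE of 0.15 and an adjusted p of 0.0229 in edgeR's quasi-likelihood test, a 1.61-fold difference. It was not called without the block (adjusted p 0.239), with total counts in place of TMM (0.0597), or without pair 793 (0.0636), 784 (0.118) or 779 (0.0873).

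Scarb1, the high-density lipoprotein receptor, held 93.7, 112, 83.3 and 99.6 CPM in Tim-4+ TAMs and 114, 104, 80.8 and 93.1 CPM in Tim-4- TAMs. Over the 8 libraries it spanned a narrower range than any other member, and neither subset stood above the other. Its log2 fold change was -0.01 with an interval of -0.26 to 0.25 and an adjusted p of 0.972 in edgeR's quasi-likelihood test (ENSMUSG00000037936.15, chromosome 5, 125277087 to 125341094). Scarb1 was called lower only when libraries were scaled by total counts (log2 fold change -0.37, adjusted p 0.0273), a scaling that moved the median of all genes to -0.36.

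Olr1 and Scarf1, both endocytic receptors for modified LDL, did not pass the test. Olr1, the lectin-like receptor LOX-1, measured 120, 303, 84.4 and 63.7 CPM in Tim-4+ TAMs and 73.9, 281, 53.5 and 16.3 CPM in Tim-4- TAMs. It differed more between pairs than between subsets: pair 784 was highest and pair 779 lowest in both, with a 17.3-fold span among Tim-4- libraries. Olr1 (ENSMUSG00000030162.14, chromosome 6, 129485244 to 129507165) differed by a log2 fold change of 0.84, with an interval of 0.15 to 1.54 and an adjusted p of 0.0944 in edgeR's quasi-likelihood test, and each of the 4 pairs had the higher value in Tim-4+ TAMs. DESeq2 with the block called it, at an adjusted p of 0.0135, whereas in edgeR the value was 0.42 without the block (adjusted p 0.819), 0.49 with total counts (0.204) and 0.48 without pair 779 (0.115).

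Scarf1, the class F receptor SREC-I that takes up apoptotic cells, held 66.2, 138, 88.4 and 92.9 CPM in Tim-4+ TAMs and 82.2, 75.0, 64.6 and 59.0 CPM in Tim-4- TAMs. Pair 793 ran opposite to the other 3. The log2 fold change of Scarf1 (ENSMUSG00000038188.17, chromosome 11, 75513540 to 75526582) was 0.42, with an interval of -0.03 to 0.87 and an adjusted p of 0.170 in edgeR's quasi-likelihood test. Without pair 793 it was 0.67 (adjusted p 0.0430), while it was 0.26 without pair 784 (0.463), 0.34 without pair 779 (0.420) and 0.06 with total counts (0.787).

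Stab1, which encodes stabilin-1, a large receptor for acetylated LDL, SPARC and phosphatidylserine on dying cells, went the other way. Tim-4+ TAMs held 797, 727, 1945 and 421 CPM and Tim-4- TAMs held 1720, 1724, 3019 and 1063 CPM. The level was lower in the Tim-4+ library of every pair, but the subsets overlapped because pair 783 was high in both. The log2 fold change of Stab1 (ENSMUSG00000042286.13, chromosome 14, 31139013 to 31168641) was -1.08 with an SE of 0.17 and an adjusted p of 0.00949 in edgeR's quasi-likelihood test, and the log2 ratios of the pairs ran from -1.34 to -0.63. Without the pair block its adjusted p was 0.294, and without pair 784 it was 0.0705. Stab1 shares 112 exonic bases with Nt5dc2 on the opposite strand, a gene with 10616 counts over the 8 libraries, and whether counting used strand is not given in the sources used here.

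Cd163, the receptor for hemoglobin bound to haptoglobin, was a modestly expressed member that was higher in Tim-4+ TAMs. Its values were 74.0, 73.3, 248 and 102 CPM in Tim-4+ TAMs and 63.1, 30.5, 71.0 and 41.5 CPM in Tim-4- TAMs. The lowest Tim-4+ library only just cleared the highest Tim-4- library, and the Tim-4+ library of pair 783 stood apart from the rest of its subset. For Cd163 (ENSMUSG00000008845.9, chromosome 6, 124304656 to 124330527) the log2 fold change was 1.15 with an SE of 0.25 and an adjusted p of 0.0255 in edgeR's quasi-likelihood test, or 2.23-fold. Without pair 783 it was 0.93 (adjusted p 0.00932). The call was lost without the block (adjusted p 0.131), with no count filter (0.0965), without pair 784 (0.114) and without pair 779 (0.104).

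Scaled to exon length, so that genes could be compared with each other, the order of the members differed between the subsets. In Tim-4+ TAMs the median level was 2443 CPM per kilobase of merged exons for Marco and 1224 for Cd5l, which placed them 14th and 39th among 13205 protein-coding genes. Msr1 followed at 205 and Cd36 at 113, then Stab1 at 74.0, Scarf1 at 31.4, Olr1 at 28.6, Cd163 at 16.1, Scarb1 at 11.4 and Colec12 at 8.43 CPM per kilobase. Neighbours in this order were separated without overlap at only 3 steps, from Cd5l to Msr1, from Msr1 to Cd36 and from Cd163 to Scarb1, although Marco was above Cd5l in each of the 4 libraries.

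In Tim-4- TAMs no member led. Stab1, Cd5l, Marco and Msr1 had medians of 167, 163, 161 and 151 CPM per kilobase with overlapping ranges, and they ranked 187th, 194th, 202nd and 217th among the coding genes. Cd36 had 57.7, Scarf1 24.2, Olr1 17.9, Scarb1 11.6, Cd163 9.58 and Colec12 1.32 CPM per kilobase. Only the steps from Cd36 to Scarf1 and from Cd163 to Colec12 were free of overlap. Msr1 kept nearly the same rank in both subsets (202nd in Tim-4+ TAMs), whereas Colec12 moved from 4361st in Tim-4+ to 9722nd in Tim-4- TAMs.

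**Figure D3:**
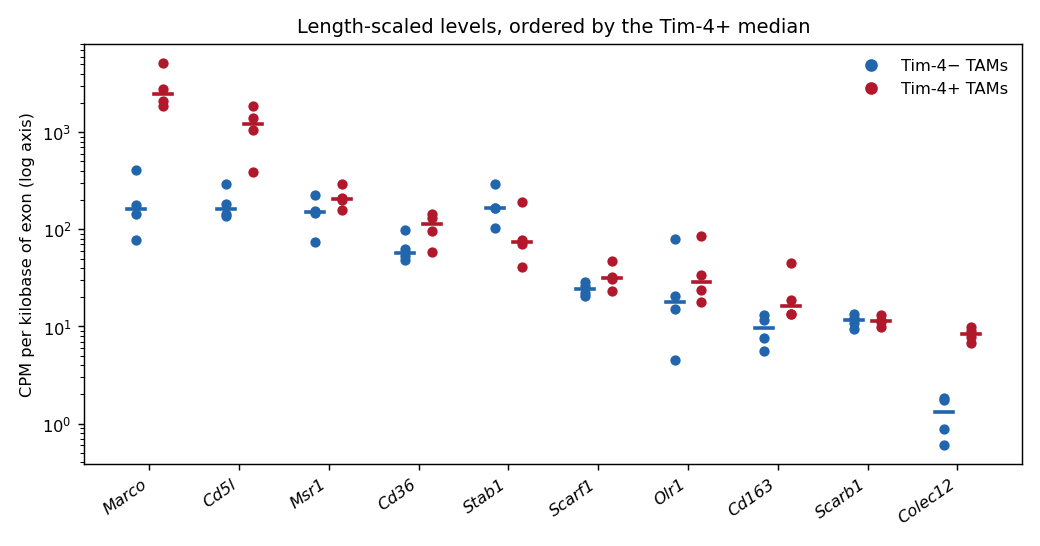
CPM per kilobase of exon (log axis) of each gene in the 4 Tim-4- (blue) and 4 Tim-4+ (red) libraries, with bars at the medians and genes ordered by the Tim-4+ median. Marco and Cd5l lead in Tim-4+ TAMs at 2443 and 1224, and in Tim-4- TAMs they sit at 161 and 163 beside Stab1 at 167 and Msr1 at 151.

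The 10 genes together took 9184, 17300, 8439 and 10540 CPM in Tim-4+ TAMs and 4740, 4496, 5071 and 2415 CPM in Tim-4- TAMs, unscaled for length. Marco made up 43.8%, 57.2%, 42.4% and 51.1% of that sum in Tim-4+ TAMs, against 16.6%, 6.13%, 6.77% and 6.26% in Tim-4- TAMs. Stab1 supplied 36.3%, 38.3%, 59.5% and 44.0% in Tim-4- TAMs, against 8.68%, 4.2%, 23.0% and 3.99% in Tim-4+ TAMs. The largest single contributor by counts was thus Marco in each Tim-4+ library and Stab1 in each Tim-4- library.

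Timd4, which encodes the antigen used for the separation, was checked in every library. It measured 1161, 1744, 524 and 1166 CPM in Tim-4+ TAMs and 85.0, 11.1, 22.3 and 1.97 CPM in Tim-4- TAMs, so that the Tim-4- level was 7.32%, 0.638%, 4.25% and 0.169% of that in the partner library. For Marco the same percentage was 19.5%, 2.79%, 9.59% and 2.81%. As a percentage of the partner library, pairs 793 and 783 had the most Timd4 left in Tim-4- TAMs, and also the most Marco, Cd5l and Colec12. In CPM this did not hold for Cd5l, whose Tim-4- level in pair 783 was the lowest of the 4, at 280 CPM. The Tim-4+ partner of pair 783 was also the lowest of its subset for Cd5l, at 788 CPM. For Cd5l the percentages were 27.8%, 9.87%, 35.6% and 10.2%, and for Colec12 they were 18.7%, 13%, 19.6% and 7.62%. In every pair the remainder of each of these 3 genes was larger than that of Timd4. The part that remaining Tim-4+ cells had in these levels was not tested. Stab1 stood at 216%, 237%, 155% and 253% of the partner.

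**Figure D4:**
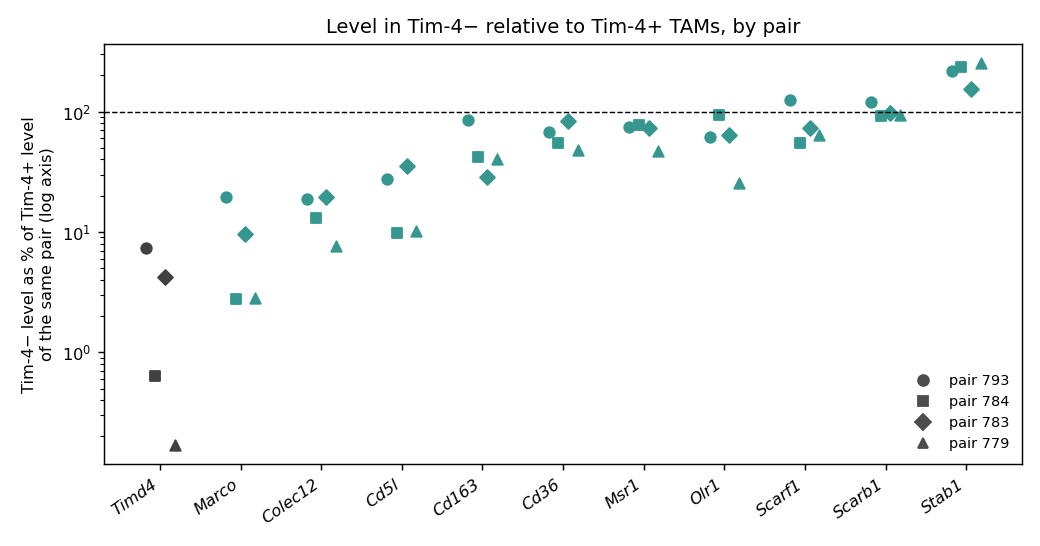
Level in Tim-4- TAMs as a percentage of the Tim-4+ library of the same pair (log axis, dashed line at 100%), for Timd4 (dark) and the 10 scavenger receptor genes (teal), with 1 marker shape per pair. Timd4 lies at 0.169% to 7.32%, Marco at 2.79% to 19.5%, and all 4 pairs of Stab1 lie above the line.

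Over the 8 libraries, the levels of some members ran side by side, which is given as a description since the same libraries, subsets and pairs underlie every point. Pearson's r of log2 CPM was 0.942 between Marco and Cd5l, 0.949 between Marco and Colec12 and 0.943 between Msr1 and Olr1. The most opposed pairs of members were Cd36 with Stab1 and Cd5l with Stab1, both at r = -0.796. Among 8770 genes averaging 10 CPM or more, those most like Marco were Itgam (r = 0.992), Lrpap1 (0.991), Ecm1 (0.989), Gbe1 (0.988) and Timd4 (0.984). Itgam encodes CD11b, and Lrpap1 the chaperone of LDL receptor relatives. Those most like Cd5l were Aspa (0.994), Plod3 (0.993), Cd24a (0.992), Mcemp1 (0.989) and Gsr (0.988). Aspa, which encodes aspartoacylase, averaged 66.1 CPM in Tim-4+ and 11.5 CPM in Tim-4- TAMs. Their log2 fold changes were all above 0, from 0.56 for Lrpap1 to 2.75 for Cd24a, apart from Timd4 itself at 6.09.

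Other genes of the scavenger pathway were taken as 4 lists. Over all tested genes in the same fit, 8.97% were called higher and 8.43% lower. Of 23 other scavenger receptors, 17 were tested, and 4 were higher and 3 lower in Tim-4+ TAMs, with a median log2 fold change of 0.15. Cd68, the lysosomal macrosialin, averaged 2080 CPM in Tim-4+ and 856 CPM in Tim-4- TAMs (log2 fold change 1.34, adjusted p 0.00891, edgeR). Lgals3bp, a secreted protein with a scavenger domain, had a log2 fold change of 1.18, and Cd14, the lipopolysaccharide co-receptor, one of 0.93. In the other direction, Mrc1, the mannose receptor CD206, averaged 169 CPM in Tim-4+ and 313 CPM in Tim-4- TAMs, a log2 fold change of -1.09 with an adjusted p of 0.0115 in edgeR's test. Its size was near that of Stab1. Cxcl16, a transmembrane chemokine that also binds oxidized lipid, fell by 0.61 on the log2 scale, and Lrp2 was lower from a mean of only 1.75 CPM in Tim-4- TAMs.

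Of 15 genes for ligands of these receptors, 12 were tested, 7 were higher and 2 were lower, with a median log2 fold change of 0.78. Thbs1, for thrombospondin-1, a ligand of Cd36, averaged 11500 CPM in Tim-4+ and 3850 CPM in Tim-4- TAMs (log2 fold change 1.61, adjusted p 0.0137, edgeR). Hp, for haptoglobin, which delivers hemoglobin to Cd163, averaged 244 and 100 CPM (log2 fold change 1.22, adjusted p 0.00875, edgeR). Lpl, for lipoprotein lipase, had a log2 fold change of 1.31. Calr, C1qa, C1qb and C1qc were also called higher, at 0.75, 0.84, 0.81 and 0.94. Thus for Cd36 and Cd163 a ligand gene and the receptor gene were both called higher, in a list where 7 of the 12 tested genes were. Whether ligand and receptor genes go together was not tested. Sparc, for the matrix protein that Stab1 internalizes, was called lower like its receptor, with means of 55.9 and 287 CPM and a log2 fold change of -2.14 (adjusted p 0.0243, edgeR). Ighm, the heavy chain of natural antibody, was the other lower gene, at -0.90.

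Among 19 adaptor and partner genes, 18 were tested, 3 were higher and 2 lower, and the median log2 fold change was 0.17. Cav1, the caveolar coat protein, averaged 129 and 33 CPM in Tim-4+ and Tim-4- TAMs (log2 fold change 1.97, adjusted p 0.00385, edgeR). Cd9, a tetraspanin that associates with Cd36, had a log2 fold change of 0.93, and the integrin chain Itgb1 one of 0.87. The lower genes were Gulp1 (-1.92, from means of 1.12 and 4.38 CPM) and Gga2 (-0.95), which encode adaptors described for stabilin receptors. Gga1 (0.22), Gga3 (0.0), Snx17 (-0.09) and Chid1 (0.11), on the same list, were not called. Of 16 transcription factor genes with known roles in the expression of scavenger receptors or in macrophages, 5 were higher and 1 lower, with a median of 0.43. Tfec, Cebpb and Klf4 had log2 fold changes of 1.02, 0.89 and 0.76, and Maf, the c-Maf gene, had -0.70 (adjusted p 0.0460, edgeR). Gata6, the factor of large peritoneal macrophages, named here after its values were seen, averaged 132 and 81.7 CPM, a log2 fold change of 0.71 with an adjusted p of 0.0122 in edgeR's test. Its gap was far smaller than that of Marco, Colec12 or Cd5l.

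**Figure D5:**
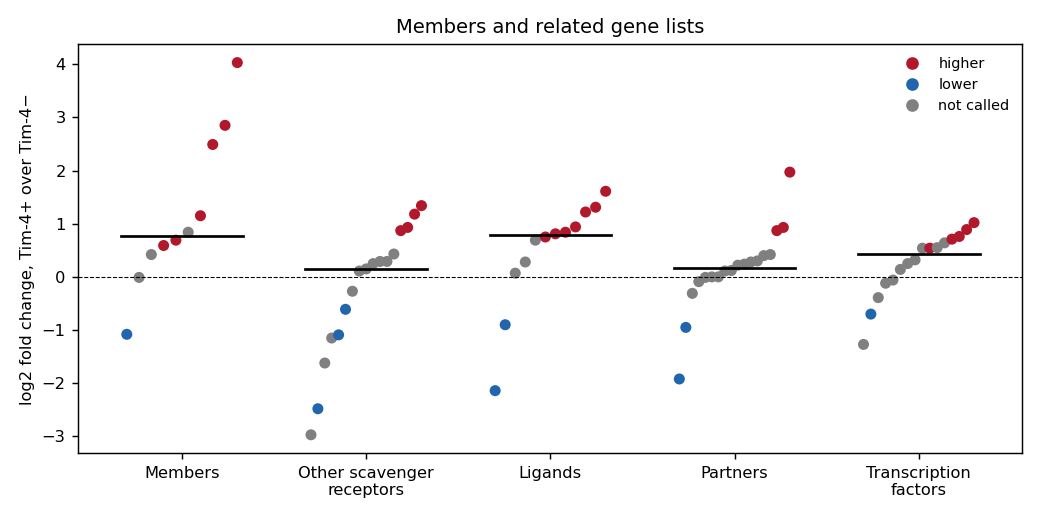
Log2 fold change (Tim-4+ over Tim-4- TAMs) of the tested genes among the members, other scavenger receptors, ligands, partners and transcription factors, with bars at the medians and red or blue for genes called higher or lower. The medians are 0.77, 0.15, 0.78, 0.17 and 0.43, and Marco at 4.03 is the top point.

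Markers of the cells that the preparations could hold are given beside these results. The 8 macrophage markers summed to 44700 to 57200 CPM in Tim-4+ and 21400 to 34200 CPM in Tim-4- TAMs, most of it Lyz2, and 6 of them (Adgre1, Itgam, Cd68, Mertk, Lyz2 and Cd14) were called higher. The 12 mesothelial and fibroblast markers summed to 122 to 468 CPM in Tim-4+ and 459 to 2080 CPM in Tim-4- TAMs, with 8 called lower (Msln, Upk3b, Wt1, Lrrn4, Krt19, Krt8, Krt18 and Dcn). On the same list Col1a1 (log2 fold change 0.56), Col1a2 (-0.49), Col3a1 (-0.06) and Pdgfra (-1.34) were not called. Sparc, a gene of stromal cells as well, was lower like the 8 called markers. The list's part in the lower Stab1 and Sparc or in the higher Marco was not tested. The 6 tumor epithelial markers summed to 8.64 to 34.1 CPM in Tim-4+ and 30.2 to 105 CPM in Tim-4- TAMs, and 3 of the 4 tested (Epcam, Krt7 and Muc16) were lower. No library of ID8 cells was included, so which of these markers ID8 cells express was not tested. These lists therefore cannot separate tumor cells from mesothelial cells.

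Stab1, Cd36 and Scarf1 are also known from endothelial cells. The 10 endothelial markers summed to 11.2 to 26.3 CPM in Tim-4+ and 23.8 to 72.6 CPM in Tim-4- TAMs, with Cldn5 at 0 in all 8 libraries. Egfl7 was called higher and Esam and Flt1 were called lower. The part of endothelial cells in the levels of Stab1, Cd36 and Scarf1 was not tested. The 7 platelet markers summed to 364 to 954 CPM in Tim-4+ and 120 to 298 CPM in Tim-4- TAMs. Nearly all of this was Pf4, a gene that macrophages express too, which was higher (698 and 167 CPM on average). The other two tested were not called, with Itga2b at 1.98 and 4.27 CPM and Gp1ba at 1.11 and 0.908 CPM, and Gp1bb was at 0 in all libraries. The remaining lists were low: T and NK cell markers summed to at most 10.8 CPM (Cd4 lower), B cell markers to 18.4 (Cd79b lower), granulocyte and mast cell markers to 64.9 (Mcpt4 and Kit lower) and dendritic cell markers to 29.4 (Cd209a higher, Zbtb46 lower).

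Library totals were 53527928 to 57768202 counts in Tim-4+ and 55618306 to 69594245 in Tim-4- TAMs. TMM factors were 0.833 to 0.948 and 1.05 to 1.18, so the subsets did not overlap in scaling, and with total counts in their place 789 genes were called higher and 4906 lower against 1512 and 1421. In the same setting 4 of the 10 scavenger receptor genes were called higher and 2 lower. The fewest genes were called without pair 784, 78 higher and 54 lower over the whole table, and of the members Colec12 was the one still called (adjusted p 0.0463). In the Tim-4- library of pair 779, reads set aside as not uniquely aligned numbered 10020232 in one lane and 3153643 in the other.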

How the data were processed

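RNA of Tim-4+ and Tim-4- TAMs (4 libraries each) had been depleted of ribosomal RNA and made into stranded, paired-end libraries. Raw counts of reads on each gene, whole numbers and not normalized, were deposited by the authors for each of 2 lanes per library. The labels name FastQC 0.11.3, TopHat2 2.0.13, Cufflinks, Cuffdiff 2.2.1 and the builds GRCm38 and mm10, while the methods name hg19. The listed genes carry mouse Ensembl identifiers. The read counter and its use of strand are not given in the sources used here. Summary lines were kept out of library sizes, and the lanes were summed.

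Genes listed numbered 55604 per lane. One lane, of the Tim-4- library of pair 793, was listed by symbol with Timd4 moved to the top, and was joined by order after moving it back (96.9% of comparable symbols matched, and all 10 members had the same count by symbol). Names and exons are from GENCODE M21 (98.4% of identifiers found).

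Genes reaching 10 counts in 4 or more libraries were tested with edgeR 4.0.16 in R 4.3.3 (quasi-likelihood, robust, TMM, pair number as a block, Benjamini-Hochberg adjustment). An SE is the log2 fold change divided by the root of its F statistic. Libraries were paired by the numbers that the labels give both subsets. Deviations of same-numbered libraries from the subset means correlated at r = 0.471, 0.498, 0.408 and 0.277 for pairs 793, 784, 783 and 779. The common biological coefficient of variation was 0.261. P-values of the blocked test measure the spread that remains between these libraries once the pair number is taken out. Alternatives were no block, other scalings and filters, DESeq2 1.42.0, other treatments of the lanes and each pair left out. The calculation was tested on simulated data.

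The members and lists were chosen with earlier results of these data known. Named are all members, Timd4, up to 3 called genes per direction and pathway list (largest log2 fold change, mean of at least 1 CPM), the 5 genes most correlated with Marco and with Cd5l, and called genes of the cell marker lists. Also named are the remaining ligand genes called higher, and Gga1, Gga3, Snx17 and Chid1 as partner genes not called. Human samples and other assays were not analysed here.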

Additional observations from a re-analysis of the deposited data

Results flagged for a closer look

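In Tim-4+ TAMs the Cd163 level of pair 783 was 248.0 CPM while the other 3 libraries of that subset lay between 73.3 and 102 CPM, and its distance to the nearest of them was a larger share of the range than Dixon's 95% limit for 4 values allows. This was 1 of 20 groups of values looked at (10 genes in 2 subsets), and about 1 in 20 passes this limit by chance. The same pair also had the highest Cd163 value in Tim-4- TAMs, at 71.0 CPM, and the highest Stab1 values in both subsets, at 1945 and 3019 CPM.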

How the results depend on the processing

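Of 130 values for single genes under 13 alternatives, 102 kept their direction and their side of the threshold, 24 fell out of significance, 3 came into it and 1 changed sign. Without the replicate block, 3 of the 10 genes were called higher (Marco, Colec12 and Cd5l) and 0 lower, beside 0.872% and 0.504% of all genes. With no count filter 3 were higher (Colec12, Cd36 and Msr1) and 1 lower (Stab1). In that setting 1508 of 31139 genes were called higher and 1354 lower. With total counts per library 2 were lower (Stab1 and Scarb1), beside 4906 of 16861 genes. With each pair left out in turn the number called higher ranged from 1 (without pair 784) to 5, and without pair 779 it was 3. The number called lower ranged from 0 (without pair 784, where 1 had an unadjusted p under 0.05) to 1. Over all genes, the fits without pairs 793, 784, 783 and 779 called 719, 78, 1573 and 445 higher. They called 470, 54, 1895 and 328 lower, of 16246, 16157, 15905 and 16196 tested. Each such fit has fewer libraries. The log2 fold change of Scarb1, -0.01 with TMM and the block and -0.37 with total counts, became 0.087 without pair 793, in a range of -0.049 to 0.087 when single pairs were left out. The cause of the losses without the count filter was not tested. Beyond the calls already given as lost, the block changed no other call among the 10 genes. DESeq2 with the block called 7 of them higher, beside 13.0% of all genes. Leaving out the symbol-listed lane gave 6 higher and 1 lower, beside 1497 and 1370 of 16638 genes. With 4 pairs, the difference of Scarf1 (log2 fold change 0.42, interval -0.03 to 0.87) could not be told from 0. The part of counting depth in this was not tested.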
